A study of Homo sapiens with 6 samples.

Results

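The nuclear genes that encode subunits of the respiratory chain and of ATP synthase were examined in PANC1 cells, a human pancreatic ductal carcinoma line, with and without the nucleoside analogue gemcitabine. The members were chosen by gene symbol. They are the NDUFA, NDUFB, NDUFC, NDUFS and NDUFV genes, SDHA to SDHD, the UQCR genes, the COX4 to COX8 genes, and the ATP5F1, ATP5M and ATP5P genes. Of the 20461 genes of the expression table, 86 met this rule: 39 of complex I, 4 of complex II, 8 of complex III, 17 of complex IV and 18 of complex V. They lie on 22 chromosomes. A pair of readthrough transcripts (ATP5MF-PTCD1 and NDUFC2-KCTD14) match the symbols and were set aside, since the rule leaves readthroughs out. Also set aside were 2 pseudogenes (ATP5F1EP2 and COX6A1P2) and the noncoding NDUFV1-DT, which encode no subunit. UQCRHL was not found among the genes analysed here.

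RNA-seq was available for 2 libraries from vehicle cells (0.1% DMSO) and 2 from cells given 50 nM gemcitabine, each for 48 h after 24 h of growth. DNaseI-seq was available for 1 library of each condition. The methods call the RNA-seq libraries biological replicates, but all come from 1 cell line, so p-values measure the spread between these cultures. The numbers 1 and 2 only tell the libraries of a condition apart. Total fragments were 15153593 and 15766237 in the vehicle libraries and 13194533 and 13275457 in the gemcitabine libraries. A count of 3 fragments then corresponds to 0.19 to 0.227 CPM, fragments scaled to the size of the library. The epithelial keratins KRT7, KRT8 and KRT18 had 5963 to 17660 fragments in every library. KRT19, also an epithelial keratin, had 45, 45, 94 and 88, so this ductal marker was scarce. Among markers of other cells, CD3E, PRSS1, INS and GCG were at 0, CPA1 had at most 1 fragment, and PTPRC had 2 to 9. CD68, a lysosomal protein of macrophages and other cells, was the exception, with 133 and 154 fragments in vehicle and 238 and 269 in gemcitabine libraries, and its part in the results was not tested.

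Oxidative phosphorylation couples the oxidation of NADH and succinate to ATP synthesis across the inner mitochondrial membrane. Electrons enter through complex I (NADH dehydrogenase) or complex II (succinate dehydrogenase), pass by ubiquinone to complex III and by cytochrome c to complex IV (cytochrome c oxidase), and the proton gradient drives complex V (ATP synthase). Most subunits are encoded in the nucleus, and a small set of core subunits is encoded by mitochondrial DNA. The transcription factors NRF1, GABP (an ETS family factor) and YY1, with coactivators of the PGC-1 family, are known regulators of these nuclear genes.

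Short motifs of these factors were searched on both strands in the 250 bases before the start of each gene (canonical transcript, GRCh37). A start was used for 85 of the 86 members, NDUFB6 being left out. The NRF1 letters (GCGCA, any base, GCGC) occurred in 18 of 85 members (21.2%), in 7.64% of all genes with a start, and in 12.9% of genes as abundant as the members. The ETS letters CCGGAAG occurred in 21 members (24.7%), against 11.9% of all genes and 18.6% of the equally abundant genes. One or the other was found in 37 members (43.5%), against 18.2% and 29.1%. The YY1 letters AANATGGCG were rare in all of them (3 members, 3.53%, against 1.61% of all genes and 2.91% of the equally abundant genes). The general CCAAT letters were present in 31.8% of members, 34.1% of all genes and 34.8% of the equally abundant genes. TATAAA was present in 7.06%, 8.97% and 4.77%. The median GC content of the window was 60.4% in members, 63.2% in all genes and 67.2% in the equally abundant genes. A match of this kind is a description of the letters and not a measured binding site.

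The promoters of COX8A, SDHB and ATP5MC3 are printed to show how these motifs sit in front of a subunit gene of complexes IV, II and V. They were chosen after the values were seen, because each window holds a motif and no annotated exon. Capitals mark the ETS letters in COX8A (chr11:63741842-63742091, plus strand, on the opposite strand of the gene, from base −18) and in SDHB (chr1:17380528-17380777, minus strand, from base −128). In ATP5MC3 (chr2:176046439-176046688, minus strand) they mark the NRF1 letters from base −14, on the opposite strand of the gene. All are read from the GRCh37 genome (hg19), 5′ to 3′ on the strand of the gene, and end at the base before its start.
COX8A: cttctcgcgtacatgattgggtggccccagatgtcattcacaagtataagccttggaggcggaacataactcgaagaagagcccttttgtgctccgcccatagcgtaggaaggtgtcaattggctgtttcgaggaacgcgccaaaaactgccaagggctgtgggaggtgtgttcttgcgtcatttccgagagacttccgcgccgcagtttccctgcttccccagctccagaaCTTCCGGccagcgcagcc
SDHB: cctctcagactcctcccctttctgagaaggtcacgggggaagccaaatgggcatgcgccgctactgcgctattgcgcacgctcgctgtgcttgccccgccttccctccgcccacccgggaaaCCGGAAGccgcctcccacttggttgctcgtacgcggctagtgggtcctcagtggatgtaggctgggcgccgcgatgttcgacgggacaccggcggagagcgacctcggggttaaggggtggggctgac
ATP5MC3: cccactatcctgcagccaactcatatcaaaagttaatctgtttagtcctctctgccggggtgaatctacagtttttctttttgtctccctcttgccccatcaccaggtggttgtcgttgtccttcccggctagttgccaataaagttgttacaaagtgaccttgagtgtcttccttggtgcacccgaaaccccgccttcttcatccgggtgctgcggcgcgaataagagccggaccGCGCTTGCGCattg

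SDHA held 4 copies of the NRF1 letters, more than any other member. Each is printed with its neighbouring bases (GRCh37 chromosome 5, plus strand), and the capitals mark the motif. The copies lie at bases −166 to −157, −117 to −108, −68 to −59 and −19 to −10 from the start. Unlike the promoters printed above, this window also holds annotated exons, of SDHA itself, CCDC127 and an unnamed gene. The same 10 letters recur in all of the copies, and the bases beside them are alike in part. The bases printed before the copies at −117, −68 and −19 end in tggt, and those before the copy at −166 do not. The bases after the copy at −19 lack the run of c that follows the others.
SDHA chr5:218259-218288: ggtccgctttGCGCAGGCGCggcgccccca
SDHA chr5:218308-218337: gtggcatggtGCGCAGGCGCgatgtccccc
SDHA chr5:218357-218386: ccggcgtggtGCGCAGGCGCggtatccccc
SDHA chr5:218406-218434: ccggtgtggtGCGCAGGCGCagtctgcgc

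The subunit genes were among the abundant transcripts of these cells. Levels are compared between genes as FPKM, the fragments of a gene set against its transcript length and the depth of the library. A filter of at least 10 fragments over the 4 libraries left 80 of the 86 members, with a median FPKM of 267 against 12.6 for all 14854 genes that passed it. The members held 1.04% and 1.03% of all fragments in the vehicle libraries and 1.21% and 1.13% in the gemcitabine libraries. Among complexes, the median was lowest for complex I (FPKM of 153) and highest for complex IV (426), with complexes II, III and V at 179, 260 and 320. The order I, II, III, V, IV held in vehicle libraries 1 and 2, gemcitabine library 1 and gemcitabine library 2.

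**Figure D1:**
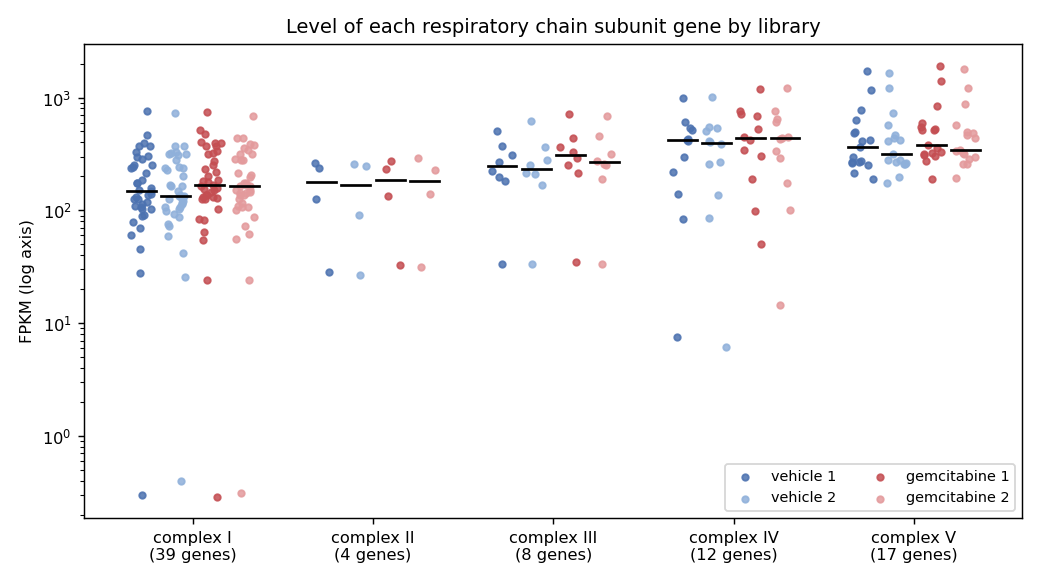
Level of each of the 80 subunit genes tested (FPKM, log axis) in each of the 4 libraries, by complex. Each point is a gene and each bar the median of the complex in that library. Medians run from 135 in complex I to 435 in complex IV, and the isolated points at the bottom of complexes I and IV are NDUFA4L2 (0.289 to 0.398) and COX6B2 (6.1 to 50.2).

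The most abundant member was ATP5F1B, the catalytic beta subunit of ATP synthase, at an FPKM of 1720 and 1660 in vehicle and 1920 and 1780 in gemcitabine libraries. COX7C, a small subunit of cytochrome c oxidase, led complex IV at 989, 1020, 1200 and 1220. UQCRQ, a small subunit, led complex III at 509, 624, 714 and 692. NDUFB4, an accessory subunit in the membrane arm, led complex I at 761, 729, 739 and 689.

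In complex II the flavoprotein SDHA (FPKM of 261, 258, 273 and 291) and the iron-sulfur subunit SDHB (235, 245, 233 and 226) were near each other in level. The membrane anchor SDHC followed at 125, 91.2, 135 and 140. The other anchor, SDHD, was the lowest of the complex at 28.4, 27, 32.6 and 31.3, with no overlap with SDHC. Among members that passed the filter, the lowest of complexes III and V were the Rieske iron-sulfur protein UQCRFS1 (33.3, 33.7, 34.7 and 33.3) and the stalk subunit ATP5PF (190, 173, 190 and 192).

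The tissue-restricted paralogs were scarce or absent in PANC1 cells. COX4I2, the lung isoform of COX4, COX6A2, a heart and muscle isoform, and COX8C, a testis isoform, had 0 fragments in all 4 libraries. A count of 0 allows up to 0.227 CPM here. The muscle isoform COX7A1 had 0, 1, 0 and 1 fragments, the testis isoform COX7B2 1, 2, 0 and 2, and ATP5MGL, a retrotransposed copy of ATP5MG, 0, 0, 2 and 0. None of these 6 reached the filter. NDUFA4L2, a paralog of NDUFA4 known as a hypoxia target, reached it only just, with 4, 5, 4 and 4 fragments (log2 fold change of −0.054). Their broad partners were plentiful, from a mean FPKM of 160 for COX6A1 to 668 for COX8A. The exception among the restricted paralogs was COX6B2.

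COX6B2 (ENSG00000160471, chr19:55860674-55866087, minus strand, hg19) is the testis isoform of COX6B, a subunit on the intermembrane face of cytochrome c oxidase. It had 81 fragments in each vehicle library and 289 and 211 in the gemcitabine libraries. That is 5.57 and 5.32 CPM against 20.8 and 15.5 CPM after TMM scaling, which sets the libraries level by their middle genes. Both gemcitabine libraries lay far above both vehicle libraries. The log2 fold change, gemcitabine against vehicle, was 1.74 (SE 0.17, 3.33-fold, n = 2 and 2, adjusted p = 2.39e-06 by the edgeR quasi-likelihood fit, Benjamini-Hochberg adjusted over the 14854 genes). It stayed between 1.51 and 1.94 when any 1 library was left out and passed each time. On the FPKM scale the gemcitabine libraries were less alike (7.48 and 6.1 against 50.2 and 14.5), and limma on log2(FPKM + 1) gave 1.86 with an adjusted p of 0.161. Some of the counts behind it are fractions, that is, reads shared between places. The gene overlaps an unnamed gene on the same strand (ENSG00000267706), whose part in the counts was not tested. Its broad partner COX6B1 stayed far more abundant, at a mean FPKM of 420 in vehicle and 425 in gemcitabine libraries against 6.79 and 32.3 for COX6B2. The log2 fold change of COX6B1 was 0.05.

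Apart from COX6B2, the members differed between conditions by small amounts. At a Benjamini-Hochberg adjusted p under 0.05 in edgeR's quasi-likelihood fit, 21 of the 80 members tested were higher with gemcitabine, 5 were lower and 54 did not pass. Over all 14854 genes 18.5% were higher and 20% lower, and no test compared these shares with the members. The median log2 fold change of the members was 0.11, against 0.0069 for all genes and −0.063 for the 6457 genes as abundant as the members. Of the members, 61 had a positive and 19 a negative value. The conditions did not overlap in CPM for 58 members (72.5%), near the 69.7% of all genes. By the study's criteria (also over 1.5-fold, with an FPKM of at least 0.1 in a condition and a difference of at least 1) COX6B2 alone was called, where 10.1% of all genes were, 5.69% as higher. The criteria were applied here to the edgeR adjusted p, where the study used Cuffdiff, so these are not the study's own calls. Without COX6B2 the values ran from −0.24 to 0.41.

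The split between higher and lower depended on the scaling. Scaled to library totals instead of by TMM, 44 members were higher and 0 lower, where 27.4% and 13.3% of all genes were, and 0 members were lower at an unadjusted p under 0.05 as well. That scaling raised the median of the members to 0.22 and that of all genes to 0.12. The members' median thus lay 0.10 above that of all genes by TMM. All 21 higher members passed under library totals too. That scaling moved values upward, so members already higher could hardly fail, and this is no separate support. The count of 21 also rested on single libraries: it was 4 without vehicle library 1, 1 without vehicle library 2, 22 without gemcitabine library 1 and 38 without gemcitabine library 2. Gemcitabine library 1 was above library 2 for 63 of the 80 members, against 46.4% of all genes. By limma on log2(FPKM + 1) 0 members passed (36 higher and 0 lower at an unadjusted p under 0.05). The members are also short (median transcript of 763 bases, against 3267 for all genes tested), and the part of length in the shift was not tested. In bulk RNA fewer cells and less RNA per cell cannot be told apart.

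**Figure D2:**
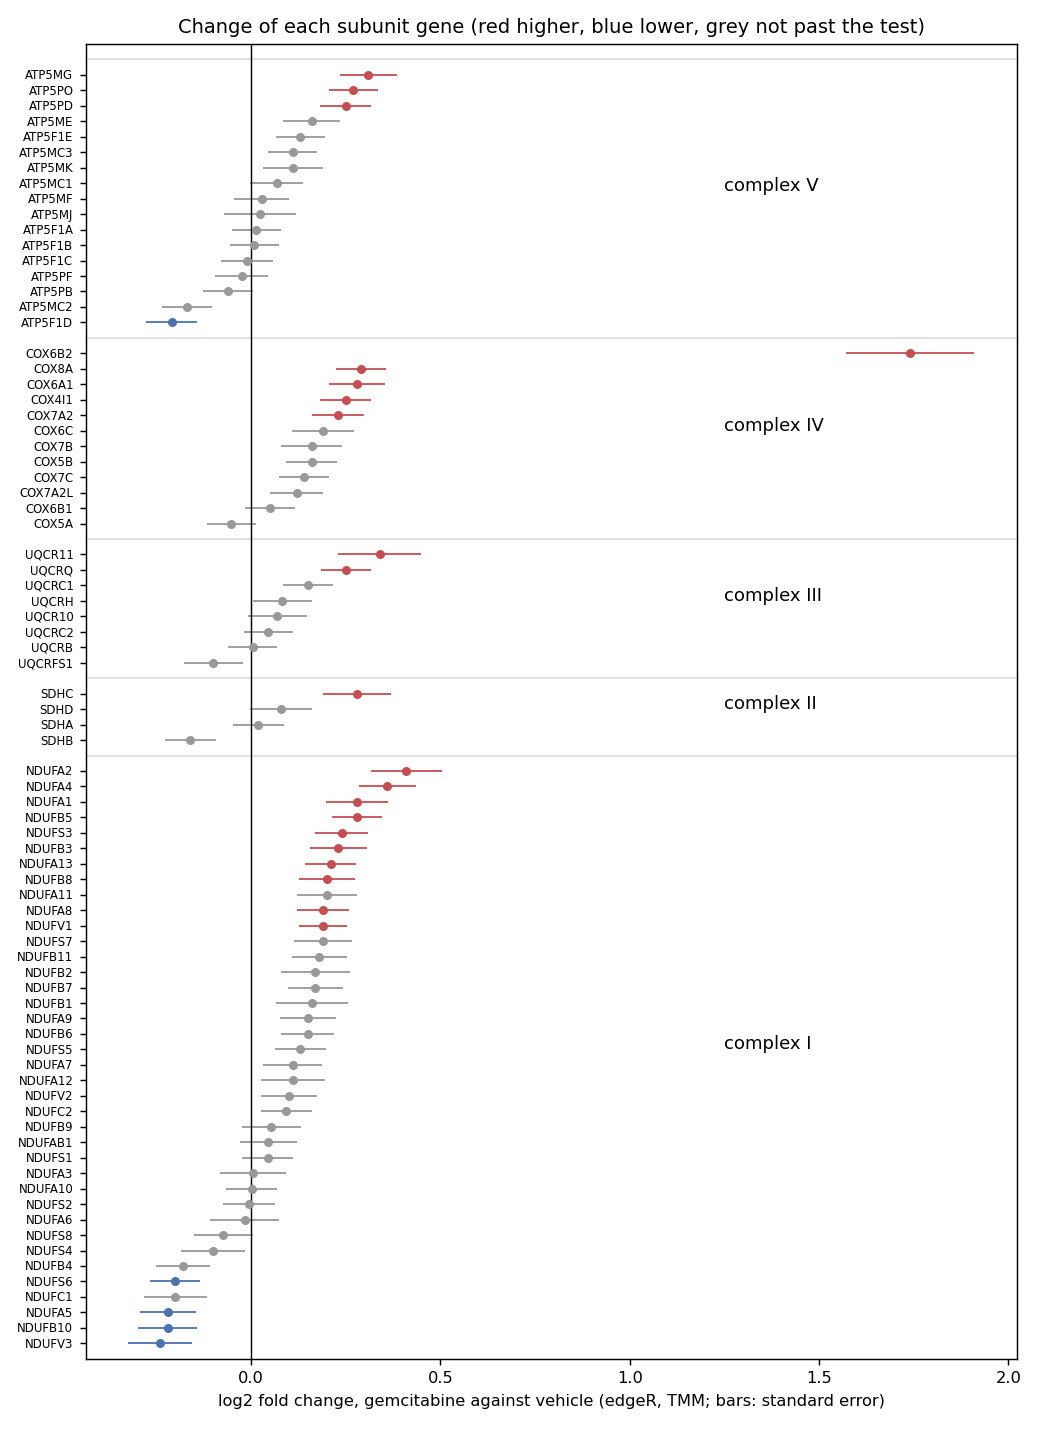
Fitted log2 fold change (gemcitabine against vehicle, TMM scaling) of 79 subunit genes by complex, with the standard error as a bar; NDUFA4L2, at 4 or 5 fragments, is left out. The 21 genes that were higher are red, the 5 that were lower blue and the rest grey, and COX6B2 at 1.74 stands apart from values between −0.24 and 0.41.

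Complex I, which takes electrons from NADH, had members on both sides: 10 of 39 were higher, 4 lower and 25 did not pass, with a median of 0.11. NDUFA2, an accessory subunit of the NADH-oxidising arm, had 25.8 and 23.6 CPM in vehicle and 32.9 and 32.6 CPM in gemcitabine libraries. Its conditions did not overlap, and the log2 fold change was 0.41 (SE 0.093, adjusted p = 0.003 by edgeR). NDUFA2 overlaps IK and TMCO6 on the opposite strand, and its counts are fewer than those of most members (359 to 456 fragments).

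NDUFA4 is named after complex I and was counted there by its symbol, but is now held to be a subunit of cytochrome c oxidase. It had 129, 125, 174 and 151 CPM. Its log2 fold change was 0.36 (SE 0.075, adjusted p = 0.00178 by edgeR), with gemcitabine library 1 well above library 2. NDUFB5, a membrane arm subunit, rose from 113 and 117 CPM to 137 and 142 CPM (0.28, adjusted p = 0.00403). The other 7 that were higher are NDUFA1, NDUFS3, NDUFB3, NDUFA13, NDUFB8, NDUFA8 and NDUFV1, with values from 0.19 to 0.28. NDUFV1, which binds FMN and NADH, and NDUFS3 are core subunits, and of the 7 core subunits these 2 were higher and the others did not pass.

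The 4 lower members of complex I are accessory subunits. NDUFV3, a small subunit beside NDUFV1, fell from 39.5 and 38.3 CPM to 33.4 and 32.7 CPM (log2 fold change of −0.24, adjusted p = 0.0379 by edgeR). NDUFB10 had 99.5 and 95.3 against 89.8 and 77.2 CPM (−0.22, adjusted p = 0.036), and NDUFA5 had 58.8 and 62 against 51.8 in both gemcitabine libraries (−0.22, adjusted p = 0.0291). NDUFS6, a zinc-binding subunit needed late in assembly, had 238 and 224 against 199 and 202 CPM (−0.20, adjusted p = 0.0243). The libraries of the conditions did not overlap in CPM for any of these 4. In FPKM they overlapped for NDUFB10 (243 and 226 against 231 and 197) and NDUFS6 (467 and 372 against 406 and 383). For NDUFV3 and NDUFA5 they did not overlap in FPKM either. Under library totals their values stayed negative, at −0.094 to −0.13, and none passed.

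Complex II, the link to the tricarboxylic acid cycle, changed in 1 of its 4 subunits. SDHC, which anchors the enzyme in the membrane, had 56.3 and 46.7 CPM in vehicle and 60.4 and 64.7 CPM in gemcitabine libraries (log2 fold change of 0.28, SE 0.090, adjusted p = 0.023 by edgeR). The vehicle libraries differed from each other by more than the nearest vehicle and gemcitabine libraries did, and the value ran from 0.16 to 0.43 as single libraries were left out. SDHA, at 353 and 343 against 338 and 368 CPM, overlapped between conditions (0.019, adjusted p = 0.851). SDHB had a value of −0.16 (adjusted p = 0.0777) and SDHD of 0.079 (adjusted p = 0.48).

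In complex III 2 of the 8 subunits were higher and none was lower, also at an unadjusted p under 0.05 in edgeR or DESeq2. UQCRQ had 128 and 129 against 157 and 149 CPM (log2 fold change of 0.25, SE 0.066, adjusted p = 0.00753 by edgeR). UQCR11, a small subunit at the edge of the complex, had 59.2 and 69.5 against 91.4 and 71.2 CPM (0.34, SE 0.11, adjusted p = 0.0207). Gemcitabine library 2 was barely above vehicle library 2, and UQCR11 passed in only 1 of the 4 fits that left out a library, with values of 0.15 to 0.51. The core proteins UQCRC1 (0.15) and UQCRC2 (0.046) and the Rieske protein UQCRFS1 (−0.10) did not pass.

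Complex IV, where electrons reach oxygen, had the highest median of any complex, 0.18 over the 12 tested genes assigned to it by symbol. NDUFA4 is not among them. The conditions did not overlap in CPM for all 12, where 69.7% of all genes and 76.4% of genes as abundant as the members did not overlap. Of the 12, 11 had a positive value and 1, COX5A, a negative value (170 and 163 against 162 and 159 CPM, −0.052). Besides COX6B2, 4 subunits were higher. COX8A, the broad isoform of a small membrane subunit, whose promoter is printed above, had 204 and 189 CPM in vehicle and 238 and 242 CPM in gemcitabine libraries. Its log2 fold change was 0.29 (SE 0.067, adjusted p = 0.00369 by edgeR). COX6A1 had 57.4 and 57.9 against 73.4 and 67.1 CPM (0.28, adjusted p = 0.00765).

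COX4I1, the main isoform of the regulatory subunit COX4, had 247 and 239 against 298 and 279 CPM (0.25, adjusted p = 0.00912). COX7A2, the broad partner of the muscle isoform, had 101 and 103 against 123 and 114 CPM (0.23, adjusted p = 0.0171). Each of these 4 broad isoforms was higher in both gemcitabine libraries than in either vehicle library, and the rises were 1.17-fold to 1.22-fold. None of the 12 was lower, at an adjusted or an unadjusted p under 0.05 in edgeR or DESeq2. The other broad partners, COX6B1 (0.05) and COX7B (0.16), did not pass.

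In complex V 3 of 17 subunits tested were higher and 1 lower, with a median of 0.028, the lowest of the 5 complexes. ATP5PO, the protein that confers sensitivity to oligomycin, had 115 and 112 against 139 and 135 CPM (log2 fold change of 0.27, SE 0.065, adjusted p = 0.00486 by edgeR). ATP5PD, also of the peripheral stalk, had 95.4 and 91.7 against 114 and 109 CPM (0.25, adjusted p = 0.00817). ATP5MG, a membrane subunit, had 68.8 and 69.9 against 91 and 80.3 CPM (0.31, adjusted p = 0.00548). The conditions did not overlap for any of these 3.

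The catalytic head moved little. ATP5F1B had about as many CPM in both conditions (log2 fold change of 0.0086), and ATP5F1A (0.014) and ATP5F1C (−0.011) were alike in this. ATP5F1D, the delta subunit of the central stalk, was the lower one, at 195 and 179 against 161 and 163 CPM (−0.21, adjusted p = 0.0253 by edgeR). It stayed negative under library totals but did not pass (−0.10). The 3 genes of the c-ring, ATP5MC1, ATP5MC2 and ATP5MC3, encode the same mature protein with different import signals and had values of 0.068, −0.17 and 0.11, none past the test. Of the 26 members past the test in all complexes, 14 overlap another gene of the table, and strand was not used to part them.

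The members were also divided by the motif in front of them. Members with the ETS letters had a median log2 fold change of 0.16 over 21 genes, 9 of them higher. Those without had 0.09 over 58 genes, with 12 higher and 5 lower. With the NRF1 letters the median was 0.08 over 17 genes (2 higher, 1 lower), and without them 0.12 over 62 (19 higher, 4 lower). These are descriptions, with no test of the difference.

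A list of 18 nuclear-encoded regulators was examined, some of which act on the nuclear subunit genes and some, such as TFAM, POLRMT and TWNK, on mitochondrial DNA. Of these, 12 were lower with gemcitabine, where 20% of all genes were, none was higher at an adjusted p under 0.05 (1 at an unadjusted p in edgeR, 0 in DESeq2), and the median log2 fold change was −0.50 (−0.39 under library totals). The coactivator PPARGC1B had 230 and 219 fragments in vehicle and 64 and 64 in gemcitabine libraries (−1.70, SE 0.15, adjusted p = 1.44e-06 by edgeR). PPRC1, the PGC-1 related coactivator, had 1851 and 1890 against 840 and 723 fragments (−1.15, adjusted p = 1.19e-07). TWNK, the helicase of mitochondrial DNA, had 783 and 762 against 339 and 373 (−1.0, adjusted p = 1.4e-06).

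The factors whose motifs were searched were lower as well. NRF1 had 440 and 450 against 296 and 238 fragments (−0.62, adjusted p = 0.000393 by edgeR). The DNA-binding GABPA had 584 and 692 against 386 and 360 (−0.66, adjusted p = 6.79e-05) and its partner GABPB1 988 and 948 against 585 and 599 (−0.60, adjusted p = 4.01e-05). YY1 had 1941 and 2146 against 1304 and 1398 (−0.48, adjusted p = 9.88e-05). Each of the 4 was lower in both gemcitabine libraries than in either vehicle library. In FPKM the gap was narrow for YY1 (62.9 and 69.3 against 61.3 and 60.4). It was wider for NRF1 (13.2 and 11.6 against 7.57 and 7.3), GABPA (8.74 and 8.7 against 7.09 and 6.71) and GABPB1 (40.1 and 33.1 against 25.1 and 27.8). PPARGC1A (−0.73), ESRRA (−0.58), TFB2M (−0.51), POLRMT (−0.46) and TFAM (−0.28) complete the 12. The gap was also narrow in FPKM for POLRMT (55.2 and 60.6 against 54 and 52.4) and TFAM (56.5 and 53.4 against 52.8 and 45). Under library totals 11 of the 18 were lower, and TFAM did not pass (−0.17). By the study's criteria 7 of the 18 were called, where 10.1% of all genes were. By limma on log2(FPKM + 1) 1 of the 18 was lower (6 at an unadjusted p under 0.05).

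Assembly factors, which build the complexes but are not part of them, included 18 that were lower, 4 higher and 35 that did not pass (57 tested, median of −0.075). Beside this, 20% of all genes were lower, and 2032 of the 6457 genes as abundant as the subunits, a share close to that of the factors. By complex, 8 of 17 factors were lower for complex I, 2 of 10 for complexes II and III, 8 of 26 tested for complex IV and 0 of 4 for complex V. The share for complex IV, the longest list, was also close to that of the equally abundant genes. NDUFAF4, a complex I factor, had 235 and 278 fragments in vehicle and 87 and 70 in gemcitabine libraries (log2 fold change of −1.59, SE 0.15, adjusted p = 2.17e-06 by edgeR). PET117 (198 and 192 against 85 and 92, −1.02, adjusted p = 8.92e-05) and COA7 (440 and 436 against 213 and 217, −0.91, adjusted p = 8.15e-06) serve complex IV. These 3 were the called genes among the factors, and their libraries did not overlap. Of the rises, SDHAF2, which helps insert FAD into SDHA, was the farthest from 0 (0.38, adjusted p = 0.00582). Under library totals 11 factors were lower and 7 higher, and by limma on log2(FPKM + 1) 1 was lower.

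**Figure D3:**
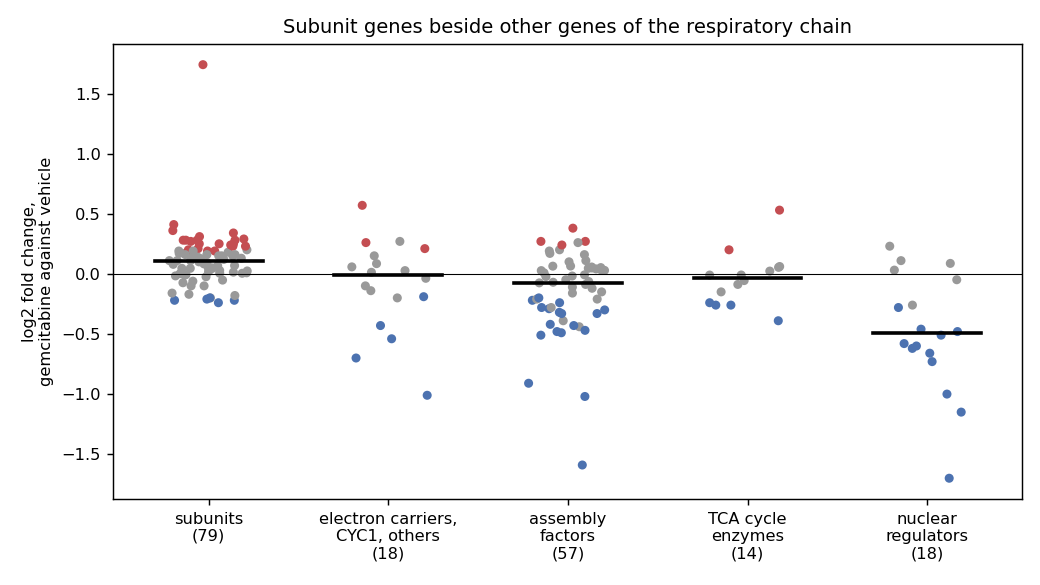
Fitted log2 fold change of 79 subunit genes and of the other gene lists (number tested in brackets), each point a gene and each bar the median; red is higher, blue lower and grey not past the test. The medians are 0.11 for subunits, −0.012 for electron carriers and related genes, −0.075 for assembly factors, −0.033 for tricarboxylic acid cycle enzymes and −0.50 for nuclear regulators.

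Of 18 genes for electron carriers, ubiquinone synthesis and subunits with other symbols, 3 were higher and 5 lower (4 and 3 under library totals, 1 and 3 by DESeq2), where 18.5% and 20% of all genes were. DHODH, the pyrimidine synthesis enzyme that passes electrons to ubiquinone, had 269 and 277 against 137 and 114 fragments (log2 fold change of −1.01, adjusted p = 3.2e-05 by edgeR). PDSS1, which makes the ubiquinone side chain, had 263 and 287 against 176 and 136 (−0.70, adjusted p = 0.000756). The ubiquinone synthesis genes COQ2 (−0.54) and COQ3 (−0.43) were lower too. Cytochrome c itself, CYCS, was lower at −0.19 (adjusted p = 0.0373 by edgeR) but did not pass under library totals (−0.082). The complex III subunit CYC1 did not pass (0.013). Of the rises, COQ6, also of ubiquinone synthesis, was the farthest from 0. It had 98 and 102 against 148 and 126 fragments (0.57, adjusted p = 0.0116 by edgeR). ETFB (0.26, adjusted p = 0.00738) and the ATP synthase inhibitor ATP5IF1 (0.21, adjusted p = 0.0478) were also higher by edgeR.

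Among 14 tricarboxylic acid cycle enzymes 2 were higher and 4 lower (3 and 1 under library totals, 1 and 2 by DESeq2), where 18.5% and 20% of all genes were. Their median of −0.033 became 0.078 under library totals. IDH2, the NADP-dependent isocitrate dehydrogenase, had 1237 and 1214 against 1552 and 1728 fragments (0.53, adjusted p = 7.47e-05), and citrate synthase, CS, 4416 and 4472 against 3107 and 3180 (−0.39, adjusted p = 0.000347). Of the 13 subunits encoded by mitochondrial DNA, 12 were listed at 0 in every library. MT-ND2 alone had counts, 14878 and 14937 in vehicle and 22897 and 10520 in gemcitabine libraries (0.27, SE 0.21, adjusted p = 0.334), so the conditions overlapped. The table therefore says nothing on the balance between nuclear and mitochondrial transcripts.

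DNaseI-seq, in which cuts by the nuclease mark open chromatin, gave 9606 peaks in vehicle and 10695 in gemcitabine cells. A peak lay within 1000 bases of the start of 47 of 85 members in vehicle (55.3%, Wilson 95% interval 44.7 to 65.4%) and of 41 in gemcitabine cells (48.2%, 37.9 to 58.7%). Of all genes with a start 19% and 22% had one, and of genes as abundant as the members 35.2% and 39.4%. The share of members was thus lower with gemcitabine and that of all genes higher, but among peaks with a score of at least 100 the members' order turned round (9 starts in vehicle and 13 in gemcitabine cells). The intervals of the members overlap, they cover counting error only, and with 1 library per condition there is no test.

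**Figure D4:**
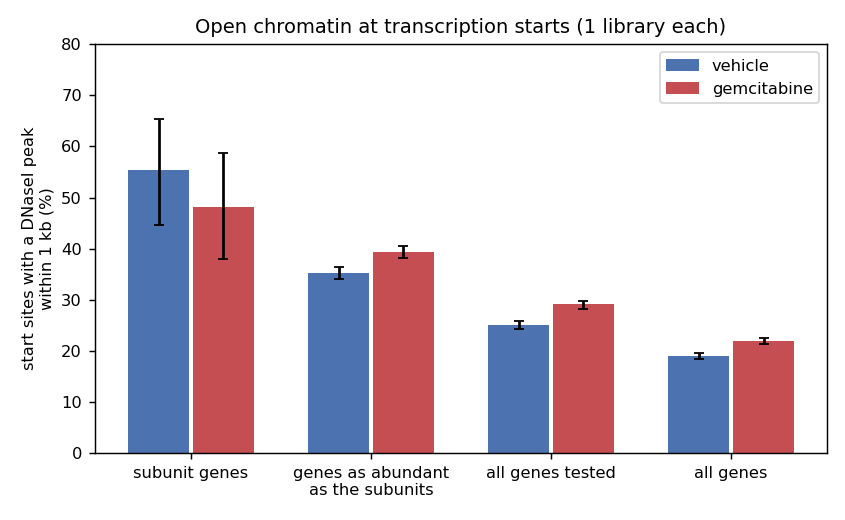
Share of gene starts with a DNaseI peak within 1000 bases (percent), in vehicle and gemcitabine cells, 1 library each, with Wilson 95% intervals as bars. Members stand at 55.3% and 48.2%, above genes as abundant as the members (35.2% and 39.4%), all genes tested (25.1% and 29.1%) and all genes with a start (19% and 22%).

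A peak was present in both conditions for 35 members, in vehicle alone for 12, in gemcitabine alone for 6 and in neither for 32. Those shares were 41.2%, 14.1%, 7.06% and 37.6%, against 14.3%, 4.77%, 7.78% and 73.2% of all genes with a start. The highest score was at NDUFA11, a membrane arm subunit, with 243 in vehicle and 288 in gemcitabine cells, followed by ATP5MC1 with 181 and 225. COX8A had peaks scored 138 and 173 that span its printed promoter. SDHB had 90.9 and 118.

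SDHA, with its 4 copies of the NRF1 letters, had a peak scored 74.8 in vehicle and none in gemcitabine cells, and ATP5MC3 likewise (71.5 and none). Of the 12 peaks seen in vehicle alone, 11 scored from 51.5 to 83.8, near the lowest score of 50 in both lists, and the other, at NDUFA2, had 101. COX6B2, the subunit gene with the largest rise in RNA, had no peak within 1000 bases of its start in either condition.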

How the data were processed

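The authors aligned RNA-seq reads to hg19 with TopHat2 (2.0.8), and Cuffdiff (2.0.2) assigned them to protein-coding Gencode genes. The deposited table holds estimated counts of fragments per gene and library, with fractions for reads that have more than 1 place (82.3% of the members' values were whole within 1e-06; 21 members had a fraction), and the FPKM that the authors obtained from Cuffdiff. NDUFS1 is marked as failed in a library and was kept. The 2 further columns scaled by Cuffdiff were not used. DNaseI peaks were called by the authors with MACS (p of 1e-05) per condition, and each deposited peak has a score, used only to rank and filter.

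Counts were rounded, and genes with at least 10 fragments in total went into an edgeR 4.0.16 quasi-likelihood fit (R 4.3.3) with TMM scaling (factors 0.959, 0.966, 1.05 and 1.03), with Benjamini-Hochberg adjustment over all genes and no covariate. Adjusted p-values in the text are from this fit unless another tool is named. Cuffdiff, which the study used, was not run. The common biological coefficient of variation was 0.0522. Scripts were tested on simulated data. Alternatives were DESeq2 1.42.0, limma 3.58.1 on log2(FPKM + 1) or log2(FPKM + 0.1), other scalings and filters, and leaving out each library. FPKM differences there are on the log2(value + pseudocount) scale, which understates low genes.

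Symbols are current names matched by Ensembl ID (19619 of 20461 genes). "As abundant" means an average log CPM at or above the members' 5th percentile. Named genes are those called by the study's criteria, the 3 largest rises and falls per complex past the test without overlap, the highest and lowest FPKM per complex, restricted paralogs with their partners, the SDH genes, members under the filter, and in other lists the called genes and those furthest from 0. NDUFS6, COX4I1, COX7A2, NDUFA11, ATP5MC1 and other genes outside it were named after their values were seen. The members, gene lists and tests were chosen with earlier results of these data known.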

Additional observations from a re-analysis of the deposited data

How the results depend on the processing

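No paired analysis was possible because the labels pair no vehicle library with a gemcitabine library. The library index of the deposited counts also could not be tied to the labels' replicate numbers. The 21 higher members became 44 by library totals, 0 and 1 by limma with a pseudocount of 1 and 0.1 (36 and 37 at an unadjusted p under 0.05), 14 by DESeq2 at an adjusted p, 11 at an adjusted p under 0.01, 12 among the 60 tested members with whole counts, and 1 to 38 when a library was left out. The 5 lower members became 0 by library totals, 2 by DESeq2, 0 by limma with either pseudocount, 1 with no filter, 0 at an adjusted p under 0.01, and 0 to 10 when a library was left out; at an unadjusted p under 0.05 limma and library totals gave 0. The call of COX6B2 by the study's criteria became 0 by limma with either pseudocount and among members with whole counts, which exclude it by construction. The members' median of 0.11 became 0.22 by library totals and 0.23 by limma with either pseudocount, and 0.064 to 0.16 when a library was left out. The 12 lower regulators became 1 by limma with either pseudocount, and 11 to 13 when a library was left out. The 18 lower assembly factors became 11 by library totals and by DESeq2, 1 and 3 by limma, and 6 to 21 when a library was left out. Raising the lowest peak score to 100 left a peak at 9 member starts in vehicle and 13 in gemcitabine cells, which reverses their order (10.6% and 15.3%, against 5.6% and 6.78% of all genes). A stricter threshold lowers counts by construction, and the cause of the other shifts was not tested. The settings on members with whole counts, regulators and assembly factors were added after the data were seen. Of single members past the test, 5 no longer passed by library totals, 10 by DESeq2, 26 and 25 by limma, 8 with no filter, and 22, 25, 3 and 2 without vehicle library 1, vehicle library 2, gemcitabine library 1 and gemcitabine library 2, and none reversed. In the fits that leave out a library the lone sample is assumed to vary like the others. With 13194533 to 15766237 fragments a library, members under 3 fragments could not be compared.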

Other observations

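The readthrough transcript ATP5MF-PTCD1, which joins a membrane subunit gene of ATP synthase to a mitochondrial RNA processing gene, had 66 and 133 fragments with vehicle and 0 in both gemcitabine libraries (Benjamini-Hochberg adjusted p = 2.12e-06 by the edgeR quasi-likelihood fit). The reads of this locus are split among ATP5MF, PTCD1 and the joined transcript, and ATP5MF itself had 2936, 3142, 3071 and 2658 fragments. The other readthrough, NDUFC2-KCTD14, had 12 and 21 against 3 and 10 fragments and did not pass. ATP5PF overlaps GABPA on the opposite strand in hg19, and these 2 neighbours had log2 fold changes of −0.024 and −0.66.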
